A study of Gallus gallus with 32 samples.

Results

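The pituitary and the hypothalamus of the same 8 male broiler chickens (Ross 308 cockerels) were compared at 3 weeks of age over all genes of the deposited count table. The libraries were chosen by label and by no measured value. They are the 8 pituitary and the 8 hypothalamus libraries of the 3-week birds, 16 of the 32 libraries of the series, in pairs from the same bird. Of the 8 birds, 4 grew slowly (low growth rate, LGR) and 4 grew fast (high growth rate, HGR). All were killed on day 22 after 6 h without feed. By the study's methods the birds were sorted by body weight at 2 weeks, and lighter and heavier birds then lived in separate pens, so growth rate and pen cannot be told apart. The hypothalamus was taken whole. After clustering, the study excluded a hypothalamus sample of the 3-week birds, and its text does not say which. All 8 hypothalamus libraries are used here. The hypothalamus libraries shared one sequencing pool, and the pool of the pituitary libraries was not given in the sources used here, so tissue and sequencing pool cannot be told apart.

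The hypothalamus is the part of the brain that reads the state of the body and sends short peptides and dopamine through portal vessels to the gland below it. The anterior pituitary answers with protein hormones: prolactin, adrenocorticotropin, thyrotropin, the gonadotropins and growth hormone, each made by its own cell lineage. A releasing factor is thus made in one tissue and acts on receptors in the other, though its receptors need not be confined to that tissue. In bulk RNA, fewer cells of a type and less RNA per cell cannot be told apart.

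Levels are given as CPM, counts scaled to a common library total but not by gene length, so they are compared between tissues and not between genes. Differences are given as the log2 fold change of the pituitary over the hypothalamus (log2 FC) with a standard error (SE). The SE was derived from the log2 FC and the statistic of its test. For genes with few counts in a tissue it can be smaller than counting error alone, so their log2 FC are less certain than the SE shows. Total counts were 6231478 to 18256297 in the pituitary and 14113986 to 17536175 in the hypothalamus libraries. The first principal component of log2 CPM held 74.6% of the variance and separated the tissues. A library of each tissue stood apart. Pituitary LGR 4 had the smallest total, 12.9% of its counts in its top gene and a median count of 9 over all genes. In the other 7 pituitary libraries the top gene, not the same gene in all, took 5.66% to 7.13%. Hypothalamus LGR 1 had 22.0% of its counts on mitochondrial genes, against 6.75% to 11.0% in the other 7 hypothalamus libraries. For a number of genes the value without one of these birds is given as well.

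**Figure D1:**
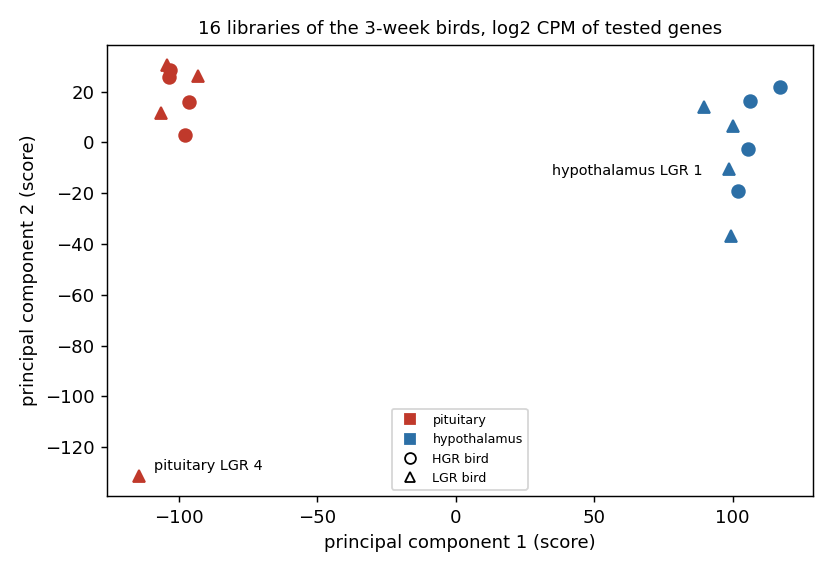
Scores of the 16 libraries on principal components 1 and 2 of log2 CPM over the tested genes; red is pituitary, blue is hypothalamus, circles are HGR and triangles LGR birds. All 8 pituitary libraries have negative and all 8 hypothalamus libraries positive scores on component 1, and pituitary LGR 4 lies at -131 on component 2.

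More of the tested genes were called different between the tissues than were not. With the bird as a block, edgeR's quasi-likelihood test called 7680 of 15033 tested genes (51.1%), where a call needed a Benjamini-Hochberg adjusted p no greater than 0.05 together with a change of 1.5-fold or more. Of the tested genes, 3560 (23.7%) were called higher in the pituitary and 4120 (27.4%) higher in the hypothalamus. Counts of calls in the lists and families below are to be read against these shares. Listed genes that matched no symbol or had too few counts were not tested. Tested were 21 of 27 listed receptors of releasing factors and 23 of 32 neuropeptides. Of neuron and synapse genes 28 of 42 were tested, and of oligodendrocyte and myelin genes 16 of 25. At 4-fold or more the called genes numbered 688 higher in the pituitary and 1401 higher in the hypothalamus, and at 16-fold or more 165 and 431 in the same order. All 8 values of a tissue lay outside the range of the other tissue in 5847 of the 15033 tested genes, 2615 of them higher in the pituitary and 3232 higher in the hypothalamus. The median log2 FC over all tested genes was 0.04, with quartiles of -0.71 and 0.57. For 4012 genes the 95% interval of the fold change lay wholly within 1.5-fold in both directions. In the 8 other birds, killed at 6 weeks, the same test called 8094 of 15106 genes. Of the genes called at 3 weeks, 7590 were tested at 6 weeks and 7076 of these were called in the same direction.

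All 5 hormone genes that carried a symbol were called higher in the pituitary, with a median log2 FC of 8.15. No values of these genes overlapped between tissues, which held for 5847 of all 15033 tested genes. Together the 5 genes took 8.07% to 14.7% (median 9.93%) of all counts in pituitary libraries and 0.00346% to 0.0972% (median 0.0313%) in hypothalamus libraries. The 14.7% was that of pituitary LGR 4, with 8.07% to 11.6% in the other pituitary libraries. Listed hormone genes that matched no symbol in the deposited tables, growth hormone among them, are not reported by name.

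PRL (ENSGALG00000012671, chromosome 2 from 58772953 to 58779107; coordinates are those of the authors' table, which names no genome build) encodes prolactin, the hormone of lactation in mammals and of broodiness in birds. It had 18230 to 42950 CPM (median 21410) in the pituitary and 0.176 to 1.45 CPM (median 0.743) in the hypothalamus. Its mean was 24080 ± 7928 CPM in the pituitary and 0.749 ± 0.443 CPM in the hypothalamus (SD, n = 8 each), a log2 FC of 14.96 (SE 0.43, edgeR adjusted p = 6.31e-10, higher in the pituitary of 8 of 8 birds). The highest pituitary value was that of LGR 4, and the other 7 lay at 18230 to 24850 CPM. The 8 hypothalamus libraries together held 96 PRL counts.

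FSHB (ENSGALG00000012140, chromosome 5 from 4507975 to 4511348) encodes the beta subunit of follicle-stimulating hormone. It had 416 to 2160 CPM (median 1267) in the pituitary and 0 to 1.53 CPM (median 0.117) in the hypothalamus, a log2 FC of 12.23 (SE 0.50). LGR 4 held 22 of the 34 FSHB counts found in hypothalamus libraries, and without this bird the log2 FC was 13.4. POMC (ENSGALG00000016600, chromosome 3 from 105818021 to 105834013) encodes the precursor of adrenocorticotropin, melanocyte-stimulating hormone and beta-endorphin, and is used both by corticotrophs of the gland and by arcuate neurons. It had 25820 to 109200 CPM (median 43350) in the pituitary and 22.8 to 315 CPM (median 177) in the hypothalamus, a log2 FC of 8.15 (SE 0.52). The highest pituitary POMC value was that of LGR 4, and the other 7 lay at 25820 to 57010 CPM. The hypothalamus library of HGR 4 was lowest, with 22.8 CPM against 111 to 315 CPM in the other 7.

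TSHB (ENSGALG00000002550, chromosome 26 from 3979888 to 3982784) encodes the thyrotropin beta subunit and had 1587 to 3209 CPM (median 1941) in the pituitary and 1.23 to 26.2 CPM (median 7.94) in the hypothalamus, a log2 FC of 8.05 (SE 0.46). CGA (ENSGALG00000015824, chromosome 3 from 76866827 to 76876263) encodes the alpha subunit that thyrotropin and the gonadotropins share. It had 19210 to 61830 CPM (median 28500) in the pituitary and 10.3 to 549.5 CPM (median 152) in the hypothalamus, a log2 FC of 7.69 (SE 0.58). The highest pituitary values of TSHB and CGA were those of LGR 4. In the other pituitary libraries TSHB had 1587 to 2614 CPM and CGA 19210 to 35660 CPM. In the hypothalamus TSHB and CGA varied more between birds than in the gland, with HGR 4 lowest and LGR 2 highest in both genes. At 6 weeks the log2 FC was 15.97 for PRL, 12.94 for FSHB, 9.47 for POMC, 10.55 for TSHB and 10.54 for CGA. The difference between the ages was not called for any of these genes.

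A gene with an identifier and no symbol, ENSGALG00000000249, chromosome 27 from 1787645 to 1791152, was as unequal as the hormones. It had 21510 to 191800 CPM (median 65610) in the pituitary and 0.936 to 6.61 CPM (median 1.65) in the hypothalamus, a log2 FC of 14.72 (SE 0.64). The highest value was that of pituitary LGR 4. There it was the top gene, with 12.9% of all counts against 2.36% to 7.13% in the other pituitary libraries. The tables used here pair this identifier with no name, so whether it is one of the listed hormones was not determined.

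Transcription factors of the pituitary lineages lay on the same side. All 14 tested members of the list were called higher in the pituitary, with log2 FC of 0.87 to 7.27 and a median of 3.99. POU1F1 (Pit-1), which in mammals drives the somatotroph, lactotroph and thyrotroph lineages, had 298 to 906 CPM (median 789) in the pituitary and 3.63 to 5.98 CPM (median 4.44) in the hypothalamus, a log2 FC of 7.27 (SE 0.24). Its lowest pituitary value was that of LGR 4, with 634 to 906 CPM in the other 7, and without this bird the log2 FC was 7.46. PITX1, a homeobox gene of the early gland, had 107 to 169 CPM in the pituitary and 0.117 to 1.88 CPM in the hypothalamus.

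LHX3, a LIM homeobox gene that the hormone lineages need in mice, had 227 to 443 CPM in the pituitary and 0.176 to 11.9 CPM in the hypothalamus (log2 FC 6.01 (SE 0.53)), and the homeobox gene SIX2 had 86.6 to 130.3 CPM in the pituitary and 0.865 to 3.07 CPM in the hypothalamus. TBX19, which marks corticotrophs in mammals, had a log2 FC of 5.39 (SE 0.24). NR5A1, which marks gonadotrophs, had one of 3.55 (SE 0.24). NR5A1, also known from the ventromedial nucleus of the mouse hypothalamus, had 9.20 to 27.4 CPM in the hypothalamus. ISL1 was the least unequal of the 14 factors, at 18.8 to 37.4 CPM in the pituitary and 13.4 to 24.9 CPM in the hypothalamus (log2 FC 0.87 (SE 0.14)).

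**Figure D2:**
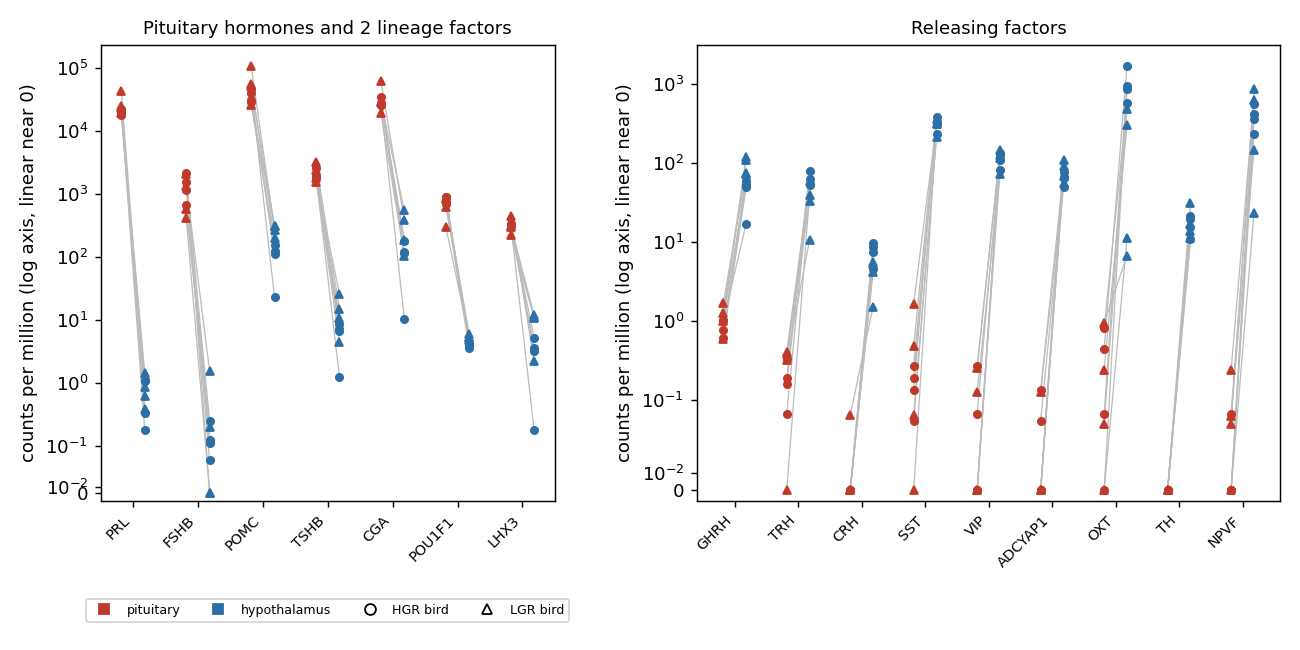
CPM of 5 hormone and 2 lineage genes (left panel) and of 9 releasing factors (right panel) in each library; pituitary (red) is left of hypothalamus (blue) for each gene, grey lines join the libraries of a bird, circles are HGR and triangles LGR birds, and the axis is logarithmic above a small linear part near 0. No pituitary value overlaps a hypothalamus value in any of the 16 genes, and TH has no counts in any pituitary library. Over all genes, 5847 of 15033 tested show no such overlap.

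The factors that the brain sends to the gland lay on the other side. All 9 tested members of the list were called higher in the hypothalamus, with a median log2 FC of -10.10, or -9.90 with a gene without pituitary counts set at its bound. GNRH1, the gonadotropin-releasing hormone, had too few counts to be tested. Summed over the list, the level was 1.14 to 4.43 CPM in the pituitary and 511 to 2906 CPM in the hypothalamus. The lowest hypothalamus sum was that of LGR 2, with 893 to 2906 CPM in the other 7, and this library was also the lowest of the 8 in TRH, CRH, VIP, NPVF and SST. Without LGR 2 all 9 were still called higher in the hypothalamus.

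GHRH, the growth hormone-releasing hormone, had 0.599 to 1.67 CPM (median 0.999) in the pituitary and 16.8 to 118 CPM (median 65.1) in the hypothalamus, a log2 FC of -6.05 (SE 0.27, edgeR adjusted p = 1e-08, lower in the pituitary of 8 of 8 birds). SST, somatostatin, which holds back growth hormone release, had 0 to 1.64 CPM (median 0.162) in the pituitary and 212 to 380.3 CPM (median 312) in the hypothalamus, a log2 FC of -9.90 (SE 0.43). The highest pituitary SST level was that of LGR 3 with 1.64 CPM, and without this bird the log2 FC was -11.1. TRH, thyrotropin-releasing hormone, had 0 to 0.399 CPM (median 0.255) in the pituitary and 10.6 to 78.4 CPM (median 53.1) in the hypothalamus, a log2 FC of -7.49 (SE 0.32).

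CRH, corticotropin-releasing hormone, had 1 count over the 8 pituitary and 748 counts over the 8 hypothalamus libraries, where its level was 1.51 to 9.64 CPM. The ratio, hypothalamus over pituitary, was 717, with a 95% interval of 128 to 28400 that covers counting error only. VIP, the vasoactive intestinal peptide that releases prolactin in birds, had 0 to 0.269 CPM (median 0.0335) in the pituitary and 71.5 to 146 CPM (median 121) in the hypothalamus, a log2 FC of -10.07 (SE 0.29). ADCYAP1, the precursor of pituitary adenylate cyclase-activating polypeptide, had 0 to 0.134 CPM in the pituitary and 49.5 to 107 CPM in the hypothalamus, a log2 FC of -10.46 (SE 0.29).

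NPVF, the precursor of gonadotropin-inhibitory hormone in birds, had the most negative log2 FC of the list, -13.21 (SE 0.24), with 0 to 0.238 CPM (median 0.0250) in the pituitary and 23.0 to 849.9 CPM (median 383) in the hypothalamus. TH, tyrosine hydroxylase, the first enzyme of dopamine synthesis, had no counts in any pituitary library and 10.8 to 31.0 CPM (median 16.2) in the hypothalamus. Set against a floor of 3 counts over the pituitary group, TH was at least 721-fold higher in the hypothalamus. OXT, which in birds encodes mesotocin, had 0 to 0.949 CPM (median 0.153) in the pituitary and 6.70 to 1685 CPM (median 525) in the hypothalamus. The hypothalamus of LGR 3 and LGR 2 held 6.70 and 11.1 CPM of OXT, while the other 6 held 302 to 1685 CPM.

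Receptors for releasing factors and for feedback or other hormones, taken as one list, were split between the tissues. Of 21 tested, 11 were called higher in the pituitary and 8 higher in the hypothalamus (23.7% and 27.4% of all tested genes), and NR3C1 and CRHR2 were not called. The median log2 FC was 0.74. AVPR1B (ENSGALG00000000788, chromosome 26 from 2366153 to 2368135), in mammals the vasopressin receptor of corticotrophs, had 181 to 650.0 CPM (median 314) in the pituitary and 0 to 0.143 CPM (median 0.0309) in the hypothalamus, a log2 FC of 12.38 (SE 0.26, edgeR adjusted p = 1.49e-10, higher in the pituitary of 8 of 8 birds). GHRHR (ENSGALG00000005212, chromosome 2 from 1166457 to 1184923), the receptor of GHRH, had 173 to 548 CPM (median 329) in the pituitary and 0 to 0.247 CPM (median 0.0934) in the hypothalamus, a log2 FC of 11.52 (SE 0.18). Ligand and receptor of this pair thus lay on opposite sides in 8 of 8 birds. The hypothalamus libraries together held 7 AVPR1B and 14 GHRHR counts.

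TRHR, the receptor of TRH, had 13.6 to 70.7 CPM in the pituitary and 1.51 to 2.81 CPM in the hypothalamus (log2 FC 3.98 (SE 0.20)), again opposite to its ligand. DRD2, the dopamine receptor that restrains lactotrophs in mammals, had 11.7 to 45.9 CPM in the pituitary and 1.16 to 3.74 CPM in the hypothalamus (log2 FC 3.35 (SE 0.23)). DRD1, another dopamine receptor, was lower in the pituitary, with 0.716 to 3.01 CPM in the pituitary and 3.51 to 7.80 CPM in the hypothalamus (log2 FC -1.19 (SE 0.23)). ESR1, the estrogen receptor alpha, had 13.1 to 68.2 CPM in the pituitary and 2.53 to 6.95 CPM in the hypothalamus (log2 FC 3.48 (SE 0.24)).

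The receptors shared by VIP and the ADCYAP1 peptide differed in direction. VIPR1 had 3.34 to 22.4 CPM in the pituitary and 1.46 to 4.4 CPM in the hypothalamus (log2 FC 2.70 (SE 0.19)), with 1 pituitary value, that of LGR 4, inside the hypothalamus range. Without this bird the log2 FC of VIPR1 was 2.82. VIPR2 had 0 to 1.71 CPM in the pituitary and 4.04 to 10.0 CPM in the hypothalamus (log2 FC -4.29 (SE 0.45)). ADCYAP1R1, the receptor specific to the ADCYAP1 peptide, had 0 to 1.67 CPM (median 0.887) in the pituitary and 89.8 to 152 CPM (median 122) in the hypothalamus, a log2 FC of -7.07 (SE 0.20). Ligand and receptor of this last pair were both higher in the hypothalamus of 8 of 8 birds.

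Of the 5 somatostatin receptors, SSTR2 (log2 FC 1.35 (SE 0.22)) and SSTR5 (0.99 (SE 0.12)) were higher in the pituitary. SSTR1 (-2.41 (SE 0.20)), SSTR4 (-2.56 (SE 0.17)) and SSTR3 (-4.13 (SE 0.18)) were higher in the hypothalamus. SSTR2 had 13.4 to 100.1 CPM in the pituitary and 14.9 to 24.1 CPM in the hypothalamus, and its one pituitary value below all hypothalamus values was that of LGR 4, without which the log2 FC was 1.52. SSTR3 had 0.300 to 0.896 CPM in the pituitary and 8.30 to 12.8 CPM in the hypothalamus. Of the remaining receptors, AVPR1A (log2 FC 1.27 (SE 0.25)) and the prolactin receptor PRLR (0.74 (SE 0.18)) were higher in the pituitary, and the ghrelin receptor GHSR (-1.32 (SE 0.23)) and the melanocortin receptor MC5R (-2.73 (SE 0.36)) were higher in the hypothalamus.

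THRB, the thyroid hormone receptor beta, had 12.4 to 99.4 CPM (median 59.0) in the pituitary and 12.5 to 23.3 CPM (median 18.1) in the hypothalamus, a log2 FC of 1.55 (SE 0.26). The pituitary value of LGR 4 was below every hypothalamus value, and without this bird the log2 FC was 1.78. NR3C1, the glucocorticoid receptor, had 3.34 to 32.1 CPM (median 21.5) in the pituitary and 8.65 to 18.7 CPM (median 14.5) in the hypothalamus, a log2 FC of 0.51 (SE 0.24, edgeR adjusted p = 0.0834, higher in the pituitary of 7 of 8 birds). Its lowest value was again that of LGR 4. Without LGR 4 both NR3C1 (log2 FC 0.70) and CRHR2, a receptor of CRH-family peptides (log2 FC 0.63), were called higher in the pituitary, which made 13 of the 21 receptors.

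**Figure D3:**
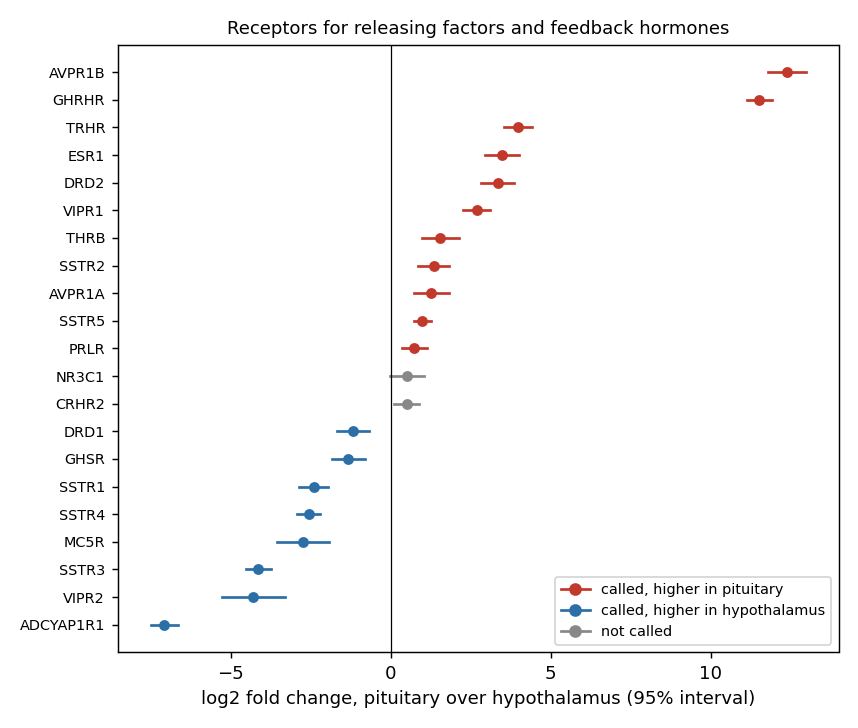
Log2 fold change of the pituitary over the hypothalamus with its 95% interval for the 21 tested receptors of releasing factors and feedback hormones; red is called higher in the pituitary, blue called higher in the hypothalamus and grey not called. AVPR1B at 12.38 and GHRHR at 11.52 lie far to the right of TRHR at 3.98, and ADCYAP1R1 at -7.07 lies farthest to the left. The intervals of AVPR1B and GHRHR rest on few hypothalamus counts and can be narrower than counting error alone.

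Of 17 granins and enzymes that cut prohormones, 4 were called higher in the pituitary and 6 higher in the hypothalamus, shares near those of all tested genes (23.7% and 27.4%). CHGA, chromogranin A, a cargo protein of dense-core granules, had 43520 to 58920 CPM (median 53220) in the pituitary and 420.4 to 1932 CPM (median 1061) in the hypothalamus, a log2 FC of 5.64 (SE 0.32, edgeR adjusted p = 5.66e-08, higher in the pituitary of 8 of 8 birds). SCG2, another granin, was opposite, with 244 to 467 CPM in the pituitary and 1394 to 2203 CPM in the hypothalamus (log2 FC -2.20 (SE 0.10)). PCSK1, the convertase that makes adrenocorticotropin from POMC in mammals, had 152 to 1079 CPM (median 638) in the pituitary and 47.0 to 79.4 CPM (median 68.4) in the hypothalamus, a log2 FC of 3.14 (SE 0.26). Its lowest pituitary value was that of LGR 4, and without this bird the log2 FC was 3.37. PCSK2, the convertase that cuts further to melanocyte-stimulating hormone, had 31.0 to 91.6 CPM in the pituitary and 129.6 to 198 CPM in the hypothalamus (log2 FC -1.28 (SE 0.19)). CPE, the carboxypeptidase that trims their products, was lower in the pituitary at -0.78 (SE 0.11), with overlapping values. The related CPZ was higher at 4.24 (SE 0.17).

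Genes of the endoplasmic reticulum and of secretory transport were called higher in the pituitary in 31 of 52 cases and higher in the hypothalamus in 2 (median log2 FC 0.78). PDIA3, a disulfide isomerase, had 986 to 1493 CPM in the pituitary and 308 to 420.5 CPM in the hypothalamus (log2 FC 1.60 (SE 0.07)), and HSP90B1, a chaperone of the reticulum, had 1300 to 2337 CPM in the pituitary and 581 to 752 CPM in the hypothalamus (log2 FC 1.33 (SE 0.10)). XBP1, a transcription factor of the unfolded protein response, had a log2 FC of 1.24 (SE 0.06). KDELR3, which returns chaperones from the Golgi, had the highest of the list at 2.29 (SE 0.20). SEC23A, a coat protein of the vesicles that leave the reticulum, was 1 of the 2 called higher in the hypothalamus. It had 21.7 to 51.8 CPM in the pituitary and 131 to 163 CPM in the hypothalamus (log2 FC -1.73 (SE 0.11), and -1.62 without LGR 4). A further 19 of the list were not called.

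AGR2 and AGR3, which encode relatives of the disulfide isomerases and lie less than 0.1 Mb apart on chromosome 2, were among the 10 largest differences towards the pituitary of genes that carry a symbol. AGR2 had 211 to 621 CPM (median 275) in the pituitary and 0 to 1.27 CPM (median 0.476) in the hypothalamus, a log2 FC of 9.18 (SE 0.30). AGR3 had 80.3 to 181 CPM in the pituitary and 3 counts over all hypothalamus libraries, a ratio of the pituitary over the hypothalamus of 5200 with a 95% counting interval of 1780 to 25200. DMBX1, a paired-class homeobox gene, had 12.2 to 73.9 CPM in the pituitary and 0 to 0.174 CPM in the hypothalamus (log2 FC 9.32 (SE 0.27)), and TMEM182, a membrane protein gene, had 9.85 to 55.8 CPM in the pituitary and 0 to 0.124 CPM in the hypothalamus (log2 FC 9.15 (SE 0.36)).

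Neuropeptides of the hypothalamus were called higher there in 19 of 23 cases and higher in the pituitary in 2 (median log2 FC -3.78). SST, VIP and ADCYAP1 are members of this list too. HCRT, the precursor of the orexins that sustain wakefulness, had 0 to 0.238 CPM (median 0) in the pituitary and 3.19 to 301 CPM (median 112) in the hypothalamus, a log2 FC of -11.45 (SE 0.34). The hypothalamus of LGR 2 held 3.19 CPM and the other 7 held 96.2 to 301 CPM. PMCH, melanin-concentrating hormone, had 0.128 to 0.477 CPM in the pituitary and 14.2 to 69.8 CPM in the hypothalamus (log2 FC -6.56 (SE 0.24)). NPY, a peptide that drives feeding, had 9.79 to 70.1 CPM in the pituitary and 68.5 to 135 CPM in the hypothalamus (log2 FC -2.18 (SE 0.22)).

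GRP, gastrin-releasing peptide, was an exception. It had 160.0 to 2046 CPM (median 272) in the pituitary and 18.5 to 61.6 CPM (median 36.7) in the hypothalamus, a log2 FC of 3.54 (SE 0.56, edgeR adjusted p = 0.00017, higher in the pituitary of 8 of 8 birds). In the pituitary LGR 4, LGR 2 and HGR 1 held 2046, 1753 and 775 CPM, and the other 5 held 160.0 to 294 CPM. Without LGR 4 the log2 FC of GRP was 3.21. PTHLH, a parathyroid hormone-like peptide, was the other member called higher in the pituitary, at 0.85 (SE 0.26), with overlapping values.

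Transcription factors that pattern hypothalamic regions were called higher in the hypothalamus in 29 of 38 cases, higher in the pituitary in 3 and not called in 6 (median log2 FC -4.65). The homeobox gene HMX2 and the forkhead gene FOXB1 had no counts in any pituitary library. In the hypothalamus HMX2 had 3.16 to 6.67 CPM and FOXB1 had 1.8 to 3.08 CPM. Set against 3 counts over the pituitary group, HMX2 was at least 229-fold and FOXB1 at least 104-fold higher in the hypothalamus. SIM1, which specifies paraventricular neurons in mice, had 1 count in the pituitary and 667 counts in the hypothalamus, a ratio of the hypothalamus over the pituitary of 639 (95% counting interval 114 to 25300). Among the exceptions, called higher in the pituitary, were PAX6 (log2 FC 3.43 (SE 0.20)) and MEIS2 (2.42 (SE 0.23)). PAX6 had 47.5 to 110.3 CPM in the pituitary and 3.72 to 13.1 CPM in the hypothalamus.

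Neuron and synapse genes were called higher in the hypothalamus in 27 of 28 cases and higher in the pituitary in 0 (median log2 FC -2.89). GAD2, an enzyme of GABA synthesis, had 0 to 0.737 CPM in the pituitary and 146 to 305 CPM in the hypothalamus (log2 FC -9.14 (SE 0.22)), and SLC32A1, the vesicular GABA transporter, had 0 to 0.380 CPM in the pituitary and 71.3 to 145 CPM in the hypothalamus (log2 FC -9.94 (SE 0.30)). The synaptic kinase gene CAMK2A had 0 to 0.164 CPM in the pituitary and 48.4 to 90.8 CPM in the hypothalamus, and its relative CAMKV had 0.0538 to 0.443 CPM in the pituitary and 140.4 to 261 CPM in the hypothalamus. SNAP25, a membrane fusion protein, had 58.7 to 87.5 CPM in the pituitary and 651 to 1235 CPM in the hypothalamus (log2 FC -3.78 (SE 0.10)), and STMN2, a microtubule regulator, had 497 to 645 CPM in the pituitary and 1464 to 2512 CPM in the hypothalamus (log2 FC -1.72 (SE 0.09)).

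Ligand-gated channels were called higher in the hypothalamus in 30 of 35 cases and higher in the pituitary in 1. GRIN1, the obligatory subunit of NMDA receptors, had 1.67 to 7.47 CPM in the pituitary and 357 to 538 CPM in the hypothalamus (log2 FC -6.90 (SE 0.21)), and the glycine receptor gene GLRA2 had 0 to 0.253 CPM in the pituitary and 32 to 43.9 CPM in the hypothalamus (log2 FC -8.36 (SE 0.28)). HTR3A, a serotonin-gated channel, was the exception, with 1.67 to 7.97 CPM in the pituitary and 0.116 to 0.975 CPM in the hypothalamus (log2 FC 2.74 (SE 0.37)). Voltage-gated channels were called in both directions, 7 of 38 called higher in the pituitary and 23 higher in the hypothalamus (23.7% and 27.4% of all tested genes). The sodium channel gene SCN1A had 0 to 2.22 CPM in the pituitary and 40.8 to 94.1 CPM in the hypothalamus (log2 FC -5.50 (SE 0.35)), whereas SCN9A, of the same family, had 43.6 to 87.7 CPM in the pituitary and 16.8 to 31.9 CPM in the hypothalamus (log2 FC 1.72 (SE 0.08)). KCNH8, a potassium channel gene, had 11.2 to 27.8 CPM in the pituitary and 1.17 to 2.46 CPM in the hypothalamus (log2 FC 3.16 (SE 0.17)).

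All 16 tested genes of oligodendrocytes and myelin were called higher in the hypothalamus (median log2 FC -5.05). Their summed level was 104 to 257 CPM in the pituitary and 3877 to 11940 CPM in the hypothalamus. Of 17 tested genes of astrocytes and tanycytes, 16 were called higher in the hypothalamus and DIO2 higher in the pituitary. GFAP, the intermediate filament of astrocytes, had 0.109 to 17.3 CPM (median 0.604) in the pituitary and 777 to 1529 CPM (median 1113) in the hypothalamus, a log2 FC of -9.70 (SE 0.76), and AQP4, their water channel, had 0.128 to 2.57 CPM in the pituitary and 238 to 466 CPM in the hypothalamus (log2 FC -8.15 (SE 0.26)). AGT, angiotensinogen, made by astrocytes in the mammalian brain, had 0 to 2.01 CPM in the pituitary and 621 to 1043 CPM in the hypothalamus (log2 FC -10.80 (SE 0.49)).

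Single glial genes were highest in different pituitary libraries. The summed level of the astrocyte and tanycyte list was highest in pituitary LGR 3, at 1929 CPM, and was 1403 CPM in HGR 1 and 1055 to 1929 CPM over the 8 pituitary libraries. Pituitary HGR 1 was highest in GFAP (17.3 CPM) and AGT (2.01 CPM). It was also highest in S100B, a glial calcium-binding protein, with 72.9 CPM against 0.649 to 1.67 CPM in the other 7 pituitary libraries and 83.2 to 138 CPM in the hypothalamus. Without HGR 1 the log2 FC was -10.5 for GFAP, -6.75 for S100B and -11.4 for AGT, against -9.70, -5.92 and -10.80 with all birds. NKX2-1, a homeobox gene of the ventral hypothalamus, had 4.68 CPM in pituitary HGR 3 and 3.54 CPM in pituitary LGR 3, 0 to 0.697 CPM in the other 6 pituitary libraries and 11.6 to 35.0 CPM in the hypothalamus. Its log2 FC was -4.95 (SE 0.74), and -5.81 without HGR 3. CRYM, a thyroid hormone-binding protein, was highest in the same pituitary libraries, with 122 CPM in HGR 3, 169.9 CPM in LGR 3 and 31.7 to 66.8 CPM in the other 6. The part of adjoining brain or neural lobe tissue in these values was not tested.

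Ratios of pituitary transcripts within a library were computed after the values were seen, so they are given as a description with no test. CGA counts per PRL count were 0.808 to 1.96 (median 1.32) in pituitary libraries and 58.7 to 609 (median 261.0) in hypothalamus libraries, higher in the hypothalamus of 8 of 8 birds. TSHB counts per PRL count had a median of 0.0880 in the pituitary and 13.2 in the hypothalamus, and POMC counts per PRL count one of 2.12 in the pituitary and 225 in the hypothalamus. For CGA per TSHB the medians were 14 in the pituitary and 19.3 in the hypothalamus, higher in the hypothalamus of 7 of 8 birds. Gene length cancels when a ratio is compared between tissues.

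CGA, POMC, TSHB, PRL, LHX3, PITX1 and CHGA were all lowest in the same hypothalamus library, HGR 4. It held 10.3 CPM of CGA against at least 104 in the other 7, 1.23 CPM of TSHB against at least 4.44, and 0.176 CPM of LHX3 against at least 2.22. GHRH was lowest in the same library, with 16.8 CPM against 49.0 to 118 CPM. Other hormone and lineage genes were not lowest there. POU1F1 had 4.16 CPM in hypothalamus HGR 4 and was lowest in HGR 3 (3.63 CPM). SIX2 had 1.41 CPM in HGR 4 and was lowest in HGR 2 (0.865 CPM). FSHB had 0.0586 CPM in HGR 4 and no counts in LGR 1 or LGR 2. The pars tuberalis is a thin sheet of pituitary tissue on the base of the hypothalamus, known in birds as a site of TSHB and CGA expression. How much of it each dissection held was not tested.

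**Figure D4:**
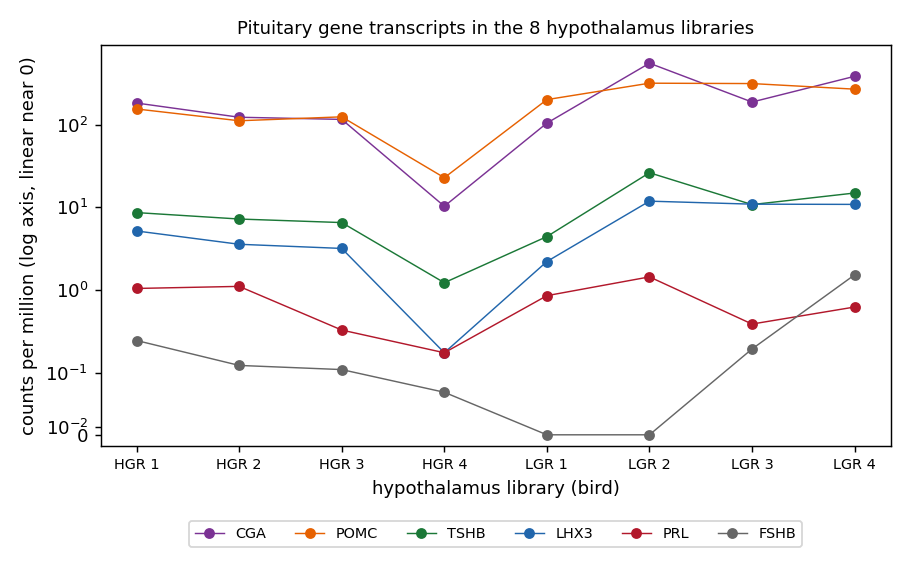
CPM of 6 pituitary genes in each of the 8 hypothalamus libraries, on an axis that is logarithmic above a small linear part near 0; each colour is a gene, and lines join the birds for reading only. CGA, POMC, TSHB, LHX3 and PRL are all lowest in HGR 4, and PRL lies between 0.176 and 1.45 CPM.

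Receptors of the feeding circuits were called higher in the hypothalamus in 20 of 23 cases (median log2 FC -2.99). MC4R, the melanocortin receptor through which POMC peptides curb feeding, had 0 to 0.316 CPM in the pituitary and 13.4 to 30.9 CPM in the hypothalamus (log2 FC -7.91 (SE 0.36)). MC3R had 1 count in the pituitary and 366 in the hypothalamus, a ratio of the hypothalamus over the pituitary of 351 (95% counting interval 62.6 to 13900). LEPR, the leptin receptor, was the one member called higher in the pituitary, with 46.3 to 70.6 CPM (median 50.6) in the pituitary and 2.92 to 7.44 CPM (median 5.26) in the hypothalamus, a log2 FC of 3.30 (SE 0.16, edgeR adjusted p = 1.91e-08, higher in the pituitary of 8 of 8 birds).

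Of 8 tested genes of thyroid hormone handling, 3 were called higher in the pituitary and 5 higher in the hypothalamus (23.7% and 27.4% of all tested genes). DIO2, the deiodinase that makes active thyroid hormone, had 16.7 to 201 CPM (median 64.5) in the pituitary and 13.7 to 57.2 CPM (median 23.3) in the hypothalamus, a log2 FC of 1.53 (SE 0.30). It was higher in the pituitary of 7 of 8 birds, all but LGR 4, and without that bird the log2 FC was 1.8. TSHR, the thyrotropin receptor, had 0 to 0.570 CPM in the pituitary and 0.938 to 3.97 CPM in the hypothalamus (log2 FC -3.70 (SE 0.36)), and TRHDE, the enzyme that degrades TRH, had 0.238 to 1.01 CPM in the pituitary and 5.22 to 18.8 CPM in the hypothalamus (log2 FC -4.00 (SE 0.21)).

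Genes of monoamine synthesis and transport were called higher in the hypothalamus in 8 of 13 cases and higher in the pituitary in 1 (27.4% and 23.7% of all tested genes). DDC, the decarboxylase that completes dopamine and serotonin, had 0 to 0.219 CPM in the pituitary and 38.5 to 84.5 CPM in the hypothalamus (log2 FC -8.70 (SE 0.21)), and SLC18A2, the vesicular monoamine transporter, had 0.256 to 2.38 CPM in the pituitary and 33.6 to 51.3 CPM in the hypothalamus (log2 FC -5.61 (SE 0.32)). GCH1, which makes the cofactor of tyrosine hydroxylase, was the exception, with 64.7 to 125 CPM in the pituitary and 10.0 to 28.1 CPM in the hypothalamus (log2 FC 2.16 (SE 0.13)).

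Of 13 general endothelial genes, 5 were called higher in the pituitary and 2 higher in the hypothalamus, where all tested genes gave 23.7% and 27.4%. Of 13 genes of the blood-brain barrier, 0 were called higher in the pituitary and 9 higher in the hypothalamus. The difference between these lists was not tested. KDR, a receptor of vascular endothelial growth factor, had 66.6 to 136 CPM in the pituitary and 25.3 to 66.3 CPM in the hypothalamus (log2 FC 1.34 (SE 0.15)), and VWF, von Willebrand factor, had 9.04 to 30.0 CPM in the pituitary and 107 to 169.6 CPM in the hypothalamus (log2 FC -2.81 (SE 0.21)). MFSD2A, a lipid transporter of the barrier, had 7.37 to 12.9 CPM in the pituitary and 23.0 to 42.1 CPM in the hypothalamus (log2 FC -1.91 (SE 0.12)).

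Collagen and matrix genes were called higher in the pituitary in 23 of 36 cases and higher in the hypothalamus in 2 (median log2 FC 0.85). With LGR birds alone the first count was 13. COL4A5 and COL4A6, nearby genes on chromosome 4 for basement membrane collagen chains, had a log2 FC of 3.39 (SE 0.29) and 3.12 (SE 0.32). COL4A5 had 89.7 to 312 CPM in the pituitary and 11.6 to 36.6 CPM in the hypothalamus. TNC, tenascin C, was opposite, with 0.954 to 21.4 CPM in the pituitary and 18.9 to 57.6 CPM in the hypothalamus (log2 FC -3.19 (SE 0.32)), and its one pituitary value inside the hypothalamus range was that of HGR 3.

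Of 26 leukocyte genes, 12 were called higher in the pituitary and 3 higher in the hypothalamus (23.7% and 27.4% of all tested genes). CD3E, a chain of the T cell receptor complex, had 14.9 to 70.0 CPM in the pituitary and 5.04 to 10.8 CPM in the hypothalamus (log2 FC 1.84 (SE 0.32)), with the highest pituitary value in HGR 3. B2M, the light chain of MHC class I, had 1250 to 2836 CPM in the pituitary and 459 to 1064 CPM in the hypothalamus (log2 FC 1.41 (SE 0.14)). CSF1R, a receptor of macrophages and microglia, was opposite, with 68.8 to 116 CPM in the pituitary and 149.8 to 252 CPM in the hypothalamus (log2 FC -1.11 (SE 0.12)). Of 6 red blood cell genes, 1 was called, where 51.1% of all tested genes were. Their summed level was 301 to 1984 CPM in the pituitary and 514 to 956 CPM in the hypothalamus.

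Cell division genes were called higher in the pituitary in 27 of 29 cases (median log2 FC 1.8). RRM2, a subunit of ribonucleotide reductase, had 62.5 to 112 CPM (median 77.9) in the pituitary and 6.92 to 15.3 CPM (median 9.98) in the hypothalamus, a log2 FC of 2.99 (SE 0.16, edgeR adjusted p = 3.78e-08, higher in the pituitary of 8 of 8 birds). MCM3, part of the replicative helicase, had 60.1 to 90.2 CPM in the pituitary and 8.66 to 13.7 CPM in the hypothalamus (log2 FC 2.80 (SE 0.11)), and PCNA, the clamp of DNA polymerase, had 134 to 189.9 CPM in the pituitary and 79.5 to 98.7 CPM in the hypothalamus (log2 FC 0.83 (SE 0.06)). Cyclin A2 (CCNA2) was not called, at -0.29 (SE 0.11), and thymidylate synthase (TYMS) was called higher in the hypothalamus, with 23.2 to 32.4 CPM in the pituitary and 38.4 to 54.8 CPM in the hypothalamus (log2 FC -0.74 (SE 0.07)).

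Of 26 motile cilia genes, 7 were called higher in the pituitary and 10 higher in the hypothalamus (23.7% and 27.4% of all tested genes). FOXJ1, the regulator of motile ciliogenesis, had 4.11 to 8.04 CPM in the pituitary and 20.0 to 47.1 CPM in the hypothalamus (log2 FC -2.34 (SE 0.19)). LRRC6, a dynein assembly factor, had 23.7 to 48.7 CPM in the pituitary and 10.6 to 22.4 CPM in the hypothalamus (log2 FC 1.16 (SE 0.13)). Of 15 clock genes, 5 were called higher in the pituitary and 3 higher in the hypothalamus. The clock repressor gene BHLHE40 had 50.6 to 97.2 CPM in the pituitary and 17.1 to 27.9 CPM in the hypothalamus (log2 FC 1.61 (SE 0.14)), and the nuclear receptor gene RORB had 0 to 0.760 CPM in the pituitary and 1.53 to 7.50 CPM in the hypothalamus (log2 FC -3.47 (SE 0.46)).

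**Figure D5:**
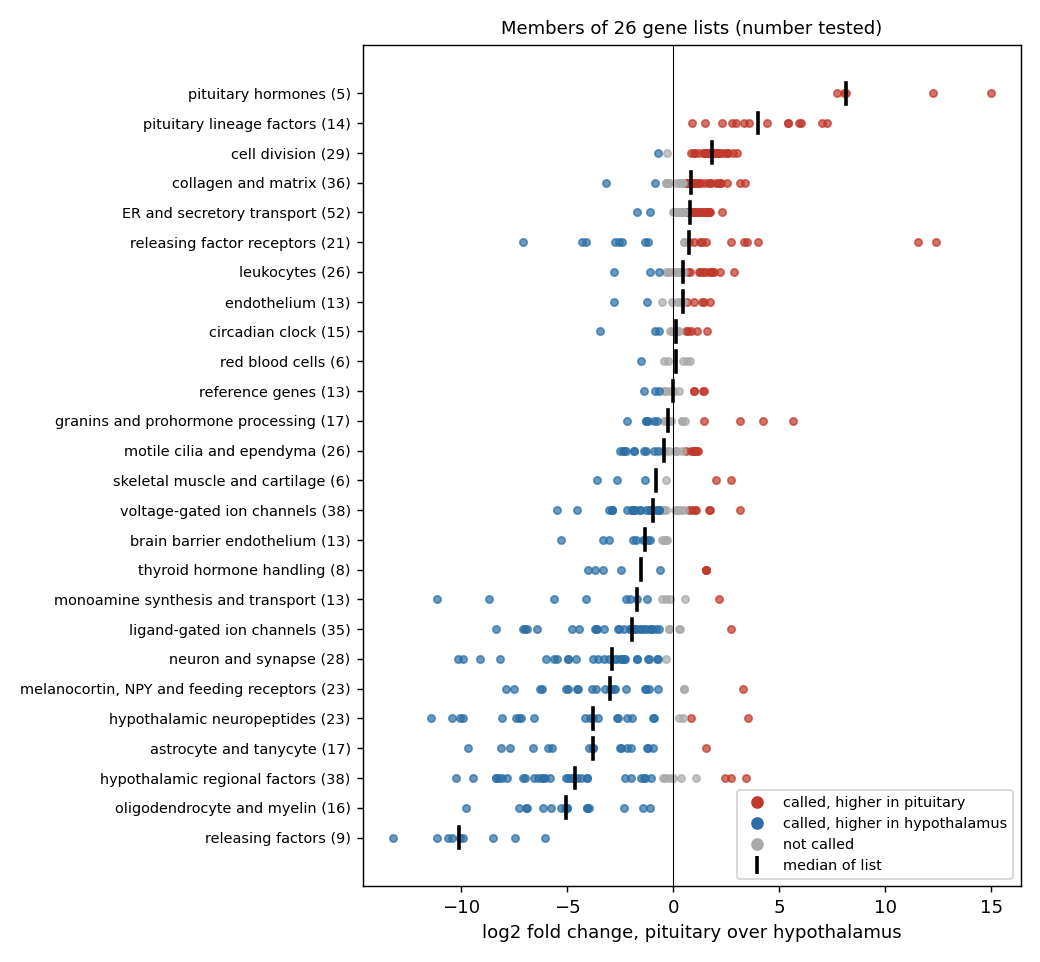
Log2 fold change of the pituitary over the hypothalamus for each tested member of 26 gene lists, ordered by the list's median (black bar), with the number tested in brackets; red is called higher in the pituitary, blue called higher in the hypothalamus and grey not called. The list medians run from 8.15 for pituitary hormones to -10.10 for releasing factors.

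Of 13 tested genes often used as references, 4 were called higher in the pituitary and 3 higher in the hypothalamus (23.7% and 27.4% of all tested genes). YWHAZ had 383 to 460.2 CPM in the pituitary and 940.2 to 1284 CPM in the hypothalamus (log2 FC -1.40 (SE 0.07)) and GUSB had 70.1 to 91.3 CPM in the pituitary and 24.8 to 31.9 CPM in the hypothalamus (log2 FC 1.45 (SE 0.07)). The 5 most abundant genes whose interval lay within 1.5-fold were ACTB (log2 FC 0.02), APP (-0.10), EIF4A2 (0.21), EEF2 (-0.03) and SPARC (-0.32). The sign of ACTB turned without scaling or without LGR 3 or LGR 4, and those of APP and EEF2 turned with upper-quartile scaling.

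Gene families, picked by symbol after the values were seen, differed in their counts. Of 62 ribosomal protein genes, 56 were called higher in the pituitary and 0 higher in the hypothalamus (median log2 FC 0.92), and without LGR 4 the first count was 49 and the median 0.77. Of the 13 proteins encoded by the mitochondrial genome, 12 were called higher in the hypothalamus (median log2 FC -1.48), and without LGR 1 the count was 12 and the median -1.24. MT-CO1, a subunit of cytochrome oxidase, had 7357 to 23870 CPM (median 10990) in the pituitary and 18530 to 71240 CPM (median 27020) in the hypothalamus, and its highest hypothalamus value was that of LGR 1. Its log2 FC was -1.28, and -1.03 without this bird. The translation factor gene EEF1A1 had 4781 to 8359 CPM in the pituitary and 2654 to 3426 CPM in the hypothalamus (log2 FC 0.86 (SE 0.10)), and the tubulin gene TUBA1A had 1253 to 1632 CPM in the pituitary and 4798 to 8883 CPM in the hypothalamus (log2 FC -2.18 (SE 0.09)). None of 25 proteasome subunit genes was called, and their log2 FC lay between -0.38 and 0.28. For comparison, 23.7% of all tested genes were called higher in the pituitary and 27.4% higher in the hypothalamus. Of 29 aminoacyl-tRNA synthetase genes 6 were called higher in the pituitary and 1 higher in the hypothalamus. Of 14 keratin and claudin genes the counts were 8 and 4 in the same order. Tubulins were called higher in the pituitary in 0 and higher in the hypothalamus in 7 of 11 cases, cadherins and protocadherins in 2 and 19 of 29, KCNK and KCNJ potassium channels in 6 and 9 of 21, and solute carriers in 34 and 98 of 209. Reads shared by near-identical members of such families were divided by the authors' counting, so values of single members are uncertain.

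Growth rate did not detectably change the difference between the tissues with these birds. The interaction, the log2 FC of LGR minus that of HGR birds, gave 0 calls among 15033 genes (0%) by edgeR, with a smallest adjusted p of 0.827 and 548 genes (3.65%) at an unadjusted p under 0.05, and DESeq2 called 4. Leaving out 1 bird at a time still gave 0 calls by edgeR. The count at an unadjusted p under 0.05 then lay between 331 and 997. It was 954 without LGR 1 and 997 without LGR 4, the birds of the libraries that stood apart. The log2 FC of PRL was 14.97 in LGR and 14.93 in HGR birds, and that of CGA was 6.98 in LGR and 8.49 in HGR birds. OXT differed more, with a log2 FC of -8.22 in LGR and -11.44 in HGR birds, and its hypothalamus levels were 6.70, 11.1, 302 and 479.6 CPM in LGR and 570.3, 848, 925 and 1685 CPM in HGR birds. The interaction of OXT was not called. MEIS2 had an adjusted p of 0.827 by edgeR, equal to the smallest (unadjusted p = 7.39e-05), and was not called either. Its log2 FC was 3.076 in LGR and 1.792 in HGR birds. Hypothalamus levels of MEIS2 were 17.97 to 24.79 CPM in LGR and 40.08 to 62.68 CPM in HGR birds. MEIS2 was singled out here by its p. How many of all genes separate the growth groups in this way was not counted, so these ranges are a description only.

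The difference between the tissues was called different between the ages, which are different birds, in 2 of 15134 genes (0.0132%). It was tested by edgeR as an interaction over all 32 libraries, with 1219 genes (8.05%) at an unadjusted p under 0.05, and DESeq2 called 60. Larger shifts were not called, such as 2.56 for TSHB (edgeR adjusted p = 0.246) and 2.87 for CGA (edgeR adjusted p = 0.469). The count of calls is thus no count of the genes that differ. CCNA1, a cyclin best known from the germ line of mammals, had 6.89 to 31.0 CPM in the pituitary and 5.49 to 10.5 CPM in the hypothalamus at 3 weeks. At 6 weeks it had 25.7 to 70.2 CPM in the pituitary and 5.25 to 14.1 CPM in the hypothalamus. Its log2 FC was larger at 6 weeks by 1.67. FKBP12.6, a binding protein of ryanodine receptors, had medians of 7.34 CPM in the pituitary and 37.1 CPM in the hypothalamus at 3 weeks, and of 9.28 CPM in the pituitary and 27.9 CPM in the hypothalamus at 6 weeks. Its log2 FC was -2.33 at 3 weeks and -1.56 at 6 weeks. Leaving out 1 bird at a time moved the count of calls between 0 and 18. The count was 10 without LGR 4 and 18 without HGR 4 of the 3-week birds, and 0 without LGR 2 of the 3-week birds or without LGR 2 or HGR 2 of the 6-week birds.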

How the data were processed

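RNA of both tissues was sequenced as single-end reads from libraries without strand information, so that overlapping and antisense genes cannot be told apart. The authors used FastQC, Flexbar, CASAVA 1.8.2, Bowtie2 and RSEM, and the deposited table holds whole-number counts without normalization for 24881 genes. The study's methods name, by its accession, the chicken assembly GRCg6a for the hypothalamus reads. The table names no build, and whether its coordinates are of that assembly was not checked. The other deposited tables hold the authors' DESeq2 comparisons of ages and served only for symbols and coordinates. OXT was found by its Ensembl identifier, and ADCYAP1, ADCYAP1R1, GNRH1, MEIS2, POU1F1 and TH by a synonym.

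The 16 libraries were fitted with edgeR 4.0.16 in R 4.3.3 (TMM scaling; the default expression filter, at its count limits of 10 and 15; bird as block). Interactions of tissue with growth rate and with age were further terms. DESeq2 1.42.0, limma 3.58.1, other scalings and filters, and fits without a bird were alternatives. CPM use TMM-scaled totals. Counting intervals and floors cover counting error only. Scripts were tested on simulated data. Libraries were paired by the bird in the labels, and deviations from tissue means correlated at 0.07 to 0.54 within birds. The median correlation with other birds was -0.156 to 0.0496. By this correlation a bird's own hypothalamus ranked 1 except for HGR 2 and LGR 1, where it ranked 3.

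Members, lists and tests were chosen with earlier results of these data known. Named genes are all tested hormones, releasing factors and receptors, and for other lists and all genes those of largest change or highest level. Some genes that fall under this rule are not reported here. A further set was added after the values were seen: TBX19, NR5A1, ISL1, PMCH, NPY, PTHLH, PAX6, NKX2-1, PCSK2, XBP1, SNAP25, HTR3A, SCN9A, S100B, LRRC6, GCH1, CD3E, CSF1R, LEPR, TYMS, CCNA2 and ENSGALG00000000249.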

Additional observations from a re-analysis of the deposited data

Results flagged for a closer look

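In 8 birds, 138 sets of values (library measures and the log2 ratio of the tissues for each named gene) were searched for a highest or lowest value whose gap to its neighbour took more of the whole range than Dixon's 95% limit allows. For independent, normally distributed values chance gives this in about 1 set in 20. The sets share the same 8 birds, so that rate cannot be applied directly. The limit was passed in 24 sets.

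Pituitary LGR 4 differed from the other 7 pituitary libraries in its total of 6231478 counts (others 14351918 to 18256297), in the share of its top gene, 12.9% (others 5.656% to 7.127%), in 12301 genes with at least 10 counts (others 14673 to 15019) and in its mean distance of 161.7 to libraries of its tissue (others 86.8 to 92.07). Hypothalamus LGR 1 differed in its mitochondrial share of 22.04% (others 6.754% to 11.0%) and in the share of its top gene, 6.546% (others 2.018% to 3.151%).

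Of the 18 genes in which 1 bird stood apart, 10 did so through LGR 4. Its log2 ratio of the pituitary over the hypothalamus was lower than in the other 7 birds in VIPR1 (1.21, others 2.34 to 3.29), THRB (-0.484, others 1.28 to 2.52), NR3C1 (-1.66, others 0.169 to 1.35), PCSK1 (1.36, others 2.83 to 3.92), SEC23A (-2.59, others -1.75 to -1.48), DIO2 (-0.886, others 1.24 to 2.61) and ADCYAP1R1 (-9.56, others -7.65 to -6.25). It was higher in the ribosomal protein gene RPL4 (1.72, others 0.687 to 1.15), in FOXB1 (-4.15, others -6.96 to -5.83) and in TH (-6.54, others -9.94 to -8.33). FOXB1 and TH had no counts in any pituitary library, so their ratios rest on the added 0.5 count and on the smaller total of LGR 4. ADCYAP1R1 likewise had no counts in pituitary LGR 4.

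HGR 4 stood apart in CGA (11.3, others 5.74 to 8.19), AGR2 (13.2, others 8.03 to 9.98) and GCH1 (3.08, others 1.84 to 2.27), and AGR2 had no counts in hypothalamus HGR 4, so its ratio there rests on the added 0.5 count. LGR 2 stood apart in HCRT (-5.07, others -12.5 to -9.58) and AQP4 (-10.8, others -8.41 to -7.35). HGR 1 stood apart in S100B (-0.536, others -7.25 to -5.94), HGR 3 in TNC (-1.03, others -4.38 to -3.18) and LGR 1 in MT-CO1 (-3.28, others -1.61 to -0.329).

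By the test of the interaction itself, the log2 FC differed between ages (6 weeks minus 3 weeks) in CCNA1 by 1.67 and in FKBP12.6 by 0.758. When 1 bird was left out, the call of CCNA1 was lost without HGR 3 or LGR 2 of the 3-week birds or LGR 2 or HGR 2 of the 6-week birds. That of FKBP12.6 was lost without HGR 1, LGR 1, LGR 2 or LGR 3 of the 3-week birds or LGR 1, LGR 2, LGR 3, HGR 2 or HGR 3 of the 6-week birds. Over all 20 alternative settings, including other methods and scaling, the call was kept in 15 for CCNA1 and in 9 for FKBP12.6.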

How the results depend on the processing

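Under the alternatives for the comparison of the tissues, the count of calls lay between 6015 (a test against the 1.5-fold limit) and 10877 (adjusted p alone), and no gene called with all 8 birds changed sign in any of them. Leaving out 1 bird gave 7528 to 7762 calls, HGR birds alone 7986 and LGR birds alone 6421. Without the bird as a block, edgeR called 7620 genes, 7491 of them also called with the block, so the pairing changed few calls. With adjusted p alone the count higher in the pituitary was 5472 in place of 3560. Upper-quartile scaling moved the median log2 FC of all genes by 0.113 and gave 53.4% of calls to the pituitary, against 46.4% with TMM scaling, so a log2 FC near 0 has no firm sign. It turned APP to 0.00963 and EEF2 to 0.0799. ACTB turned to -0.0136 without scaling and to -0.0204 without LGR 1 and LGR 4 together, and lay between -0.00443 and 0.0854 when 1 bird was left out. For the interaction with growth rate DESeq2 called 4 genes. For the interaction with age DESeq2 called 60, RLE scaling 5, the fit without the replicate block 4 and the fit without LGR 1 and LGR 4 of the 3-week birds, which was chosen after seeing the data, 3, and leaving out 1 bird gave 0 to 18. Leaving out 1 bird also moved single fold changes by over 1.5 times: MC3R (-8.54) and TMEM182 (9.84) without HGR 1, SIM1 (-9.50) and CRH (-9.66) without LGR 2, and VIPR2 (-4.99), MC4R (-8.57), OXT (-11.5), NKX2-1 (-5.61) and SLC32A1 (-10.6) without LGR 3. PRLR, ISL1, PTHLH, DIO2, MT-CO1, DRD1 and AVPR1A were not called with the 4 LGR birds alone. The cause was not tested. Depth limits the genes with few counts in a tissue. Bounds were given only for genes without counts in a tissue, and counting intervals only for those with up to 3 counts. Genes with slightly more have neither, and their SE can understate counting error. Among these are NPVF (4 pituitary counts), HCRT (4), ADCYAP1 (5) and AVPR1B (7 hypothalamus counts).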
